A study of Mus musculus with 18 samples.

Results

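The genes described here were 40 genes of mitosis and of the G2/M transition, taken by symbol from the 24421 genes of the count table. All 40 passed the filter on low counts, among 13507 genes that did, and the lowest count of any of them in any library was 592. They were read in 4T1, a mouse mammary carcinoma line, and in 4T1R1 and 4T1R2, which are 2 populations of 4T1 selected separately with 17-DMAG, an inhibitor of the chaperone HSP90. The sample records and the methods give 3 rounds of selection with 1.5 µM 17-DMAG for 48 h, and the series text gives other conditions. Untreated cells and cells given 1.5 µM 17-DMAG were sequenced from each population, so that there were 6 groups of 3 libraries. The exposure before RNA extraction is 48 h in the sample records and 2 h in the series text. The study's methods also give 2 h before RNA isolation for RT-PCR of 4T1 and 4T1R1, and a figure legend gives a shorter time. Which exposure holds for these libraries could not be settled here. The resistant populations are selected pools and not single clones, and the untreated groups received no drug before extraction.

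Cells that pass from G2 into mitosis are driven by CDK1 bound to cyclin A or cyclin B, which the CDC25 phosphatases activate. Polo and Aurora kinases then build the spindle. The checkpoint at the kinetochores delays the separation of the sister chromatids until every chromosome is attached. The anaphase-promoting complex, with CDC20 and UBE2C, then ends mitosis by marking cyclin B and securin for destruction. Transcripts of these genes are low in resting and G1 cells and high in G2 and mitosis, when B-MYB, FOXM1 and the MuvB complex act on their promoters, and some of the kinases are known clients of HSP90. In bulk RNA, fewer cells in G2 and mitosis cannot be told apart from less of these transcripts per cell.

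Among the 18 libraries, the counts of 4T1 17-DMAG replicates 1 and 2 agreed more closely than those of any other pair within a group. They were averaged into 1 sample, so that n = 2 there and n = 3 in the other groups. Totals ran from 23354461 to 55094630 counts per library, and genes were scaled by edgeR's TMM factors, which ran from 0.9209 to 1.059. Levels are given as CPM, the count of a gene relative to the TMM-scaled library size on the usual CPM scale, and a gene is called higher or lower where the adjusted p of edgeR's quasi-likelihood test was under 0.05. The library ID numbers of 4T1R1 lie in a separate number series from those of 4T1 and 4T1R2. The labels do not say what the numbers stand for, and any difference in handling behind them cannot be told apart from the population in comparisons of 4T1R1 with the others. After 17-DMAG, 4 of 4 heat shock genes were called higher in each population, with log2 fold changes of Hspa1b, an inducible HSP70 gene, of 5.11 in 4T1, 3.23 in 4T1R1 and 2.29 in 4T1R2. The 5 epithelial markers summed to 2000 to 2020 CPM of the total counts in untreated 4T1, 1420 to 1450 in untreated 4T1R1 and 1580 to 1620 in untreated 4T1R2, against at most 7.2 for leukocyte, 33.7 for fibroblast and 0.581 for endothelial markers in any library. Among the epithelial markers, Cdh1 did not follow the order of the sum. It had 353 to 366 CPM in untreated 4T1, 362 to 377 in untreated 4T1R1 and 438 to 446 in untreated 4T1R2.

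Per kilobase of exon, Top2a, which encodes the topoisomerase that untangles chromosomes, and Mki67, the gene of the proliferation marker Ki-67, had the highest levels in untreated 4T1, at 123 and 122 CPM per kb. Cdc20, the activator of the anaphase-promoting complex, followed at 80.9 CPM per kb. The lowest was Cdc25c, a phosphatase that activates CDK1, at 6.05 CPM per kb. The length used was that of all annotated exons of a gene merged, so this order depends on the annotation. The genes lie on 15 chromosomes.

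Promoters of G2/M genes often hold CCAAT boxes, which NF-Y binds, and a CHR element, which the MuvB complex binds. RefSeq windows on GRCm38.p6 were found for 33 of the 40 genes, and the 250 bases before the start were searched on both strands. The CCAAT box, with the letters CCAAT, was present before 25 of the 33 genes (75.8%), against 33.8% of all windows and 35.2% of the windows of genes tested. A gene was counted where any of its windows held the match, and per window the box was present in 28 of 36. At least 2 of them were present before 17 genes (51.5%), against 10.1% of all windows and 12.3% of those of genes tested. A CHR element, TTTGAA or TTCGAA, was present before 13 genes (39.4%), against 17.1% of all windows and 12.3% of those of genes tested. TTCCCGC, the only form of E2F site searched, was present before 0 genes, against 3.82% of all windows and 6.7% of those of genes tested. TTCGAA reads the same on both strands, and matches of different motifs were not kept apart where they shared bases. These letter matches are descriptions and show neither binding nor its lack. The windows below are those of genes with large changes, of the most abundant members and of a member with no match, chosen after the values were seen among windows that no annotated exon overlaps. Each runs 5′ to 3′ on the strand of the gene up to the base before its start, with motif matches on either strand in capitals.
Cenpf, chr1:189688087-189688236, minus strand: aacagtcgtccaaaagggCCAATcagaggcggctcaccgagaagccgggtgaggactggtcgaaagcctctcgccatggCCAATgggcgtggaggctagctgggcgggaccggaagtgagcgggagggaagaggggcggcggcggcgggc
Cdc25b, chr2:131186798-131186947, plus strand: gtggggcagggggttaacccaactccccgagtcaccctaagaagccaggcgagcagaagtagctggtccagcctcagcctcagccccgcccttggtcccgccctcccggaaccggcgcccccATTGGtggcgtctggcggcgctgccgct
Aurka, chr2:172370571-172370680, minus strand: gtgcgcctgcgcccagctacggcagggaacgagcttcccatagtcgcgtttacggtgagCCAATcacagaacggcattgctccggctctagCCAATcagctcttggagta
Anln, chr9:22389207-22389356, minus strand: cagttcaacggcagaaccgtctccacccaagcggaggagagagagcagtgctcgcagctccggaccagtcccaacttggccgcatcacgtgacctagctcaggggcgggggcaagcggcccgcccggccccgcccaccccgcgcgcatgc
Mki67, chr7:135716380-135716529, minus strand: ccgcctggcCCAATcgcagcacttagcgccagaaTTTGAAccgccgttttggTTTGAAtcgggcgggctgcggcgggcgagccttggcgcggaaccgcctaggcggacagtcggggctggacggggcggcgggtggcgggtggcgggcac
Top2a, chr11:99024190-99024339, minus strand: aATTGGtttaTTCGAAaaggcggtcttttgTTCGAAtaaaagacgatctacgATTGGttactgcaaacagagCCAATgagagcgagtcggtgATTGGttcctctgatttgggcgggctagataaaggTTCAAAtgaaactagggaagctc
Cenpf, Cdc25b and Aurka held CCAAT boxes alone, Mki67 and Top2a held CCAAT boxes and CHR elements, and Anln held neither in its 250 bases.

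In untreated cells most of these genes were lower in the resistant populations than in 4T1, by modest amounts. In 4T1R1, 30 of the 40 were called lower and 1 higher, where 27.5% and 25.2% of all genes tested were called lower and higher. In 4T1R2, 24 were called lower and 0 higher, against 26.9% and 25.6% of all genes. The median log2 fold change of the 40 was -0.175 in 4T1R1 and -0.113 in 4T1R2, against 0.00752 and 0.00676 over all genes tested. The widest changes were those of Cenpa, at 0.648-fold in 4T1R1 and 0.617-fold in 4T1R2, and no member changed by over 1 on the log2 scale in any comparison of these data. The 2 comparisons share the untreated 4T1 libraries, and their values are given side by side.

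**Figure D1:**
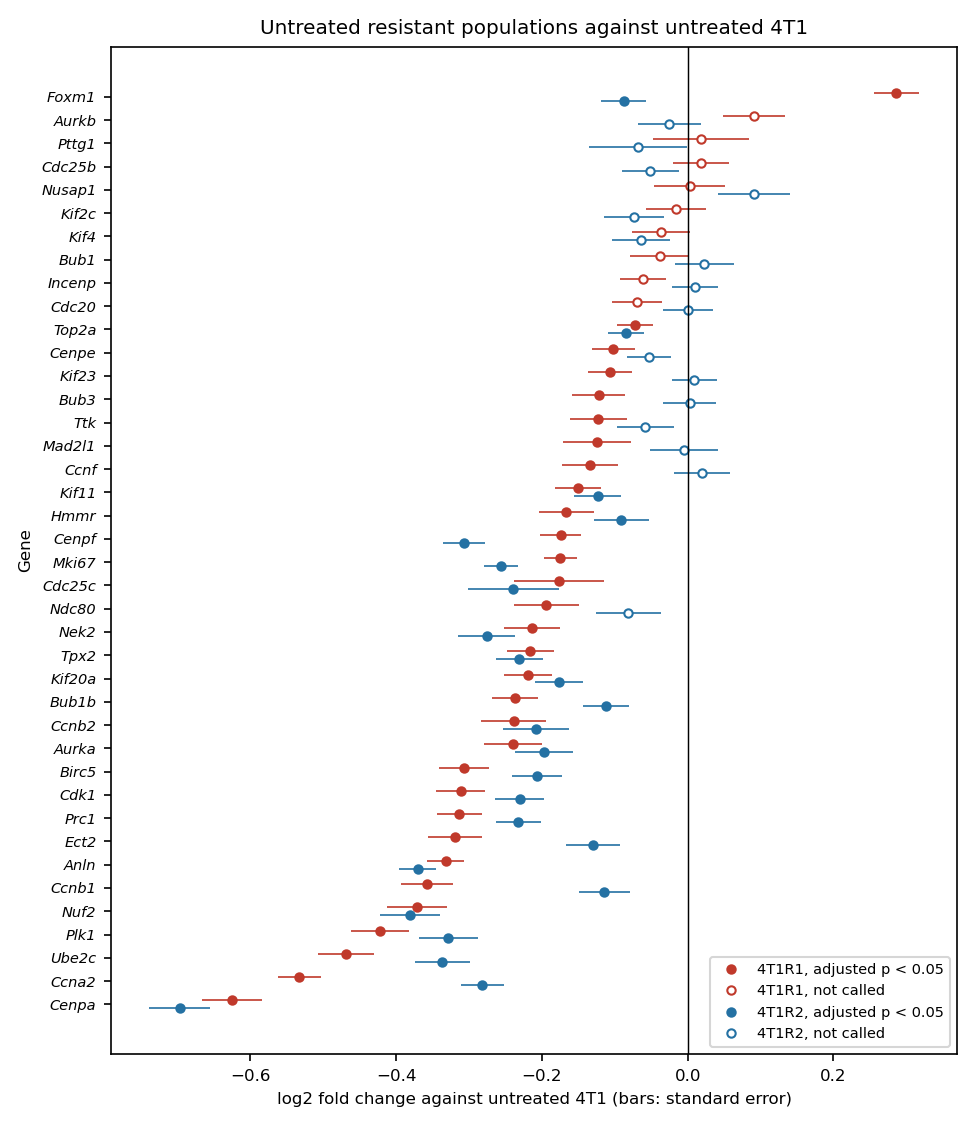
Log2 fold changes of the 40 genes in untreated 4T1R1 (red) and 4T1R2 (blue) against untreated 4T1, with standard errors and filled points for adjusted p under 0.05. Of the 40 values, 35 lie below 0 in 4T1R1 and 33 in 4T1R2, and Foxm1 stands at 0.29 in 4T1R1.

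Among the genes of mitotic entry, 6 of 8 were called lower in each resistant population. Ccna2, cyclin A2, had 288, 275 and 280 CPM in untreated 4T1, 195, 191 and 196 in 4T1R1, and 233, 231 and 229 in 4T1R2. The 3 groups did not overlap, with 4T1R1 lowest, and the log2 fold changes were -0.53 (SE 0.0293) and -0.28 (SE 0.0292). Ccnb1, cyclin B1, had 157, 159 and 161 CPM in 4T1, 130, 118 and 124 in 4T1R1, and 147, 151 and 144 in 4T1R2. It followed the same order without overlap, at 0.781-fold in 4T1R1 and 0.924-fold in 4T1R2. Transcripts of 3 processed pseudogenes match the Ccnb1 transcript over 51.7% to 52.0% of its length at 97.287% to 99.223% identity, so the reads of Ccnb1 are uncertain in part. Cdk1, the kinase itself, had 190, 196 and 188 CPM in 4T1, 153, 154 and 154 in 4T1R1, and 168, 164 and 155 in 4T1R2. Both resistant populations lay below 4T1, with log2 fold changes of -0.31 (SE 0.0337) and -0.23 (SE 0.0339). Ccnb2, cyclin B2, was also called lower in both, by 0.24 and 0.21 on the log2 scale.

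The CDC25 phosphatases were not alike. Cdc25c had 29.5, 29.8 and 29.9 CPM in 4T1, 24.6, 27.5 and 26.9 in 4T1R1, and 24.4, 24.9 and 26.3 in 4T1R2. It was called lower in both, although in 4T1R1 the call was lost without untreated 4T1R1 replicate 1 (edgeR adjusted p = 0.107). Cdc25b had 94.4, 95.5 and 95 CPM in 4T1, 94.1, 97.7 and 96.8 in 4T1R1, and 91.9, 89.6 and 93.4 in 4T1R2, and was not called in either comparison. Ccnf, cyclin F, had 92.5, 88.1 and 86 CPM in 4T1, 80.3, 81.7 and 81 in 4T1R1, and 89.1, 92.1 and 89.1 in 4T1R2. It was lower in 4T1R1, where the libraries did not overlap with those of 4T1, and was not called in 4T1R2.

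Foxm1, the transcription factor that drives many of the other genes, was the one member called in opposite directions. It had 177, 183 and 183 CPM in 4T1, 220, 223 and 219 in 4T1R1, and 174, 170 and 168 in 4T1R2. Every 4T1R1 library stood above and every 4T1R2 library below those of 4T1. The log2 fold changes were 0.29 (SE 0.0303) in 4T1R1 and -0.09 (SE 0.0308) in 4T1R2. The call in 4T1R2 was small and was lost without untreated 4T1 replicate 2 or 3 or untreated 4T1R2 replicate 3 (edgeR adjusted p = 0.0532, 0.0644 and 0.0705) and under scaling by total counts alone (edgeR adjusted p = 0.0831).

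Of the 6 mitotic kinases, 4 were called lower in 4T1R1 and 3 in 4T1R2. Plk1, which drives spindle assembly and entry into mitosis, had 149, 154 and 155 CPM in 4T1, 109, 119 and 113 in 4T1R1, and 130, 114 and 120 in 4T1R2. The level was 0.746-fold that of 4T1 in 4T1R1 and 0.796-fold in 4T1R2, with no overlap with 4T1 in either. Aurka, the Aurora kinase of the spindle poles, had 117, 122 and 125 CPM in 4T1, 101, 103 and 104 in 4T1R1, and 108, 107 and 102 in 4T1R2. It was 0.847-fold and 0.872-fold the level of 4T1. Nek2, a kinase of centrosome separation, was called lower in both, by 0.21 and 0.28 on the log2 scale. Aurkb, the Aurora kinase of the chromosomal passenger complex, and the checkpoint kinase Bub1 had log2 fold changes of 0.09 and -0.04 in 4T1R1 and of -0.03 and 0.02 in 4T1R2, none of them called.

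Among the 6 genes of the spindle checkpoint and of anaphase, 4 were called lower in 4T1R1 and 2 in 4T1R2. Ube2c, the ubiquitin-conjugating enzyme of the anaphase-promoting complex, had 148, 154 and 150 CPM in 4T1, 111, 103 and 112 in 4T1R1, and 123, 113 and 121 in 4T1R2. It was 0.723-fold the level of 4T1 in 4T1R1 and 0.792-fold in 4T1R2. Tnnc2 on the other strand shares 22.8% of the exon bases of Ube2c, and the use of strand in counting is not given in the sources used here. Ccna2, Cdc25c, Kif20a, Kif4 and Prc1 also share 11.1% to 29.3% of their exon bases with a gene on the other strand, so the reads of these 6 genes are uncertain in part. Bub3, a checkpoint protein at kinetochores, had 126, 130 and 124 CPM in 4T1, 118, 121 and 110 in 4T1R1, and 128, 127 and 125 in 4T1R2. It was called lower in 4T1R1, a call lost without untreated 4T1R1 replicate 3 (edgeR adjusted p = 0.0655), and not in 4T1R2. Cdc20 and Pttg1, the gene of securin, were not called in either.

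Cenpa, of the centromere and kinetochore genes, had the largest difference of the 40 in both resistant populations. This histone H3 variant, which marks centromeres, had 120, 128 and 121 CPM in 4T1, 79.9, 76 and 82.9 in 4T1R1, and 77, 74.6 and 75.7 in 4T1R2. The log2 fold changes were -0.63 (SE 0.0412, edgeR adjusted p = 1.64e-16) and -0.70 (SE 0.0418, edgeR adjusted p = 8.16e-18). The levels of 4T1R1 and 4T1R2 overlapped, and their difference of -0.07 was not called. Nuf2, a subunit of the NDC80 complex that holds microtubules, had 94.7, 93 and 93.9 CPM in 4T1, 73.6, 67.4 and 76.6 in 4T1R1, and 73.9, 71.4 and 70.8 in 4T1R2. It was 0.773-fold and 0.768-fold the level of 4T1. Cenpf, a kinetochore and nuclear matrix protein of G2 cells, had 452, 424 and 436 CPM in 4T1, 396, 383 and 384 in 4T1R1, and 351, 355 and 355 in 4T1R2. The 3 populations did not overlap, with 4T1R2 lowest. In all, 6 of 7 genes with this role were called lower in 4T1R1 and 4 in 4T1R2.

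Of the 9 spindle and kinesin genes, 6 were called lower in 4T1R1 and 5 in 4T1R2. The largest change among them was that of Prc1, which bundles midzone microtubules, at log2 fold changes of -0.31 and -0.23. Kif2c, a kinesin that depolymerizes microtubules, had 76, 76.1 and 76.3 CPM in 4T1, 74.7, 73.7 and 77.5 in 4T1R1, and 74.3, 70.5 and 72.1 in 4T1R2, and was not called. The 4 genes of chromatin, cytokinesis and proliferation were called lower in both populations. Anln, the gene of the contractile ring protein anillin, had 665, 652 and 662 CPM in 4T1, 522, 525 and 525 in 4T1R1, and 501, 504 and 525 in 4T1R2, at 0.794-fold and 0.774-fold. Mki67 had 1252, 1231 and 1209 CPM in 4T1, 1086, 1091 and 1093 in 4T1R1, and 1024, 1050 and 1017 in 4T1R2. Its level was 0.886-fold and 0.837-fold that of 4T1. Top2a had 1128, 1101 and 1099 CPM in 4T1, 1068, 1016 and 1082 in 4T1R1, and 1041, 1056 and 1041 in 4T1R2. These were differences of 0.951-fold and 0.943-fold, and neither was called under scaling by total counts alone (edgeR adjusted p = 0.191 and 0.0529). The call in 4T1R1 was also lost without untreated 4T1 replicate 1 or untreated 4T1R1 replicate 2 (edgeR adjusted p = 0.067 and 0.129), and with only the groups compared (edgeR adjusted p = 0.0939).

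**Figure D2:**
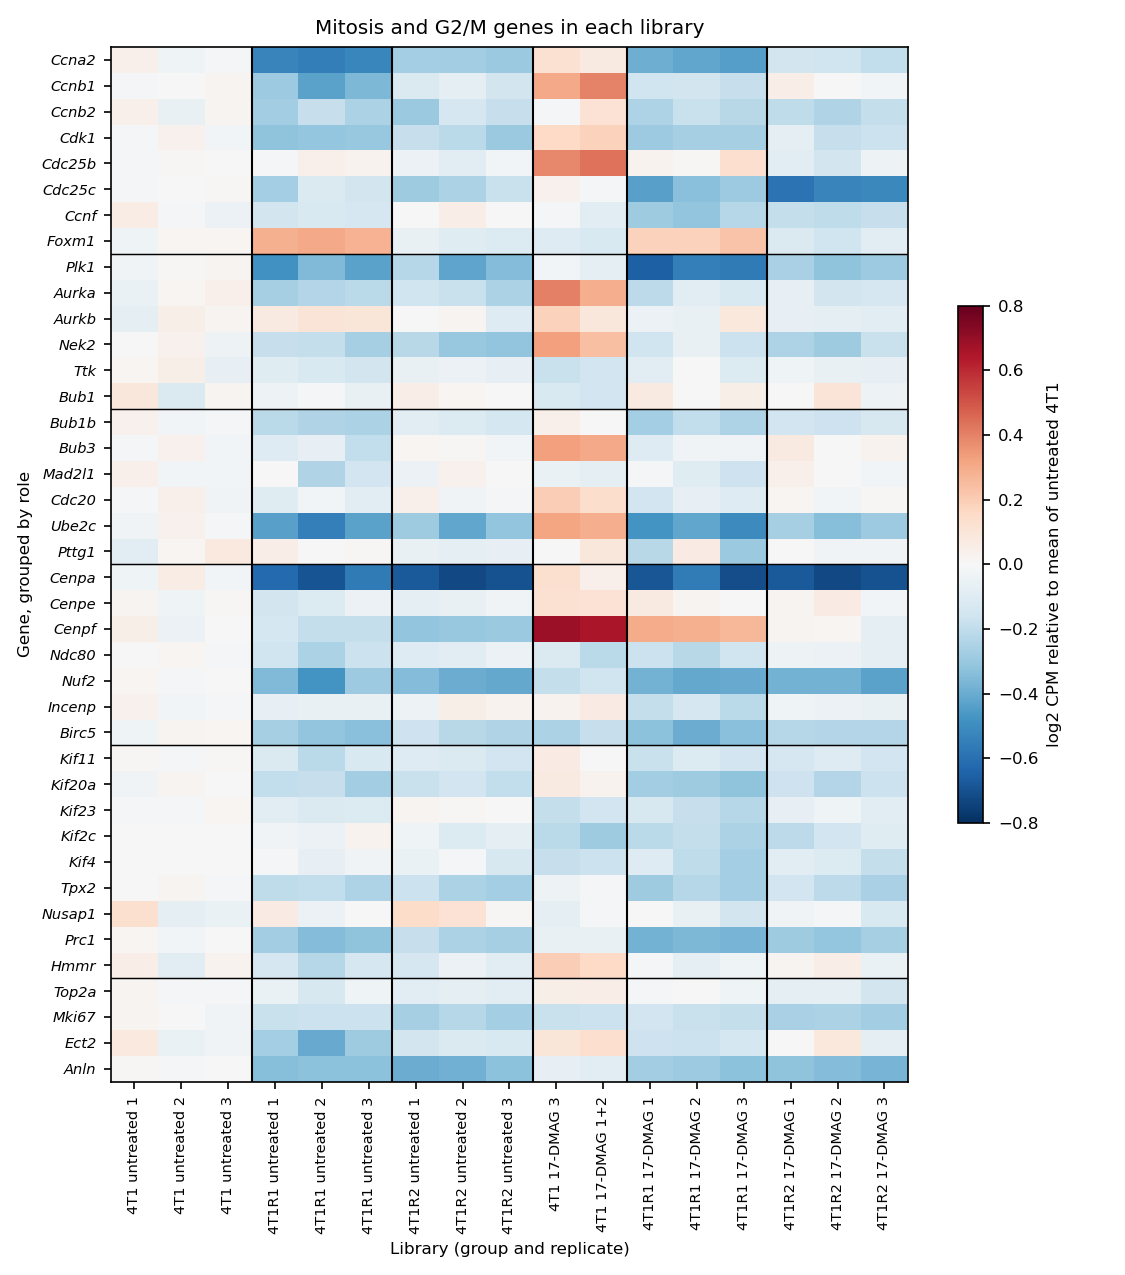
Log2 CPM of the 40 genes (rows, by role) in the 17 libraries (columns), relative to the mean of untreated 4T1. Most rows of the resistant populations are blue with and without the drug, Foxm1 is red in 4T1R1, and Cenpf, Cdc25b and Ccnb1 are red in 17-DMAG-treated 4T1.

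The median of the 40 genes in a library, relative to untreated 4T1 on the log2 scale, was -0.171 ± 0.0171 (SD, n = 3) in untreated 4T1R1 and -0.118 ± 0.013 (SD, n = 3) in untreated 4T1R2. After 17-DMAG it was 0.0244 ± 0.00983 (SD, n = 2) in 4T1, -0.185 ± 0.0159 (SD, n = 3) in 4T1R1 and -0.123 ± 0.032 (SD, n = 3) in 4T1R2. The sum of the 40 was 8577 ± 76.3 CPM in untreated 4T1, 7552 ± 68.1 in untreated 4T1R1 and 7605 ± 46.8 in untreated 4T1R2 (SD, n = 3 each).

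The resistant populations were also compared with each other. In untreated 4T1R2, 12 of the 40 genes were higher and 4 lower than in 4T1R1, where 19.7% and 19% of all genes were called higher and lower. Ccna2 and Ccnb1 were highest in 4T1R2 relative to 4T1R1, at 1.19-fold and 1.18-fold, followed by Ect2, a RhoA activator of cytokinesis. Ube2c at 1.1-fold, Ccnf at 1.11-fold and Bub3 at 1.09-fold were among the 12 as well. The 4 called lower were Foxm1 at 0.772-fold, Cenpf at 0.912-fold, Mki67 at 0.945-fold and Aurkb. Without untreated 4T1R1 replicate 3 the count of genes called higher was 7 and Bub3 was not called (edgeR adjusted p = 0.075), and Ube2c was not called without untreated 4T1R1 replicate 2 or untreated 4T1R2 replicate 1 (edgeR adjusted p = 0.0528 and 0.0548). Cdk1 was not among the 12, but DESeq2 called it higher (adjusted p = 0.0466), as did edgeR with a minimum of 10 counts (adjusted p = 0.0442). Plk1 was called higher only without untreated 4T1R1 replicate 2 or untreated 4T1R2 replicate 2 (edgeR adjusted p = 0.0144 and 0.0141).

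After 17-DMAG, 14 of the 40 genes rose and 11 fell in 4T1, so the genes did not move one way, and the median log2 fold change was 0.0388. Of all genes tested, 18.4% rose and 17.9% fell, with a median of 0.000645. In 4T1R1, 6 rose and 7 fell, against 13.9% and 14.3% of all genes, and in 4T1R2 4 rose and 3 fell, against 6.18% and 4.35%. The shares in 4T1R1 were thus near those of all genes. These splits depend on the scaling. Scaling by total counts alone moved the median of all genes tested by -0.114 in 4T1 and gave 7 genes higher and 18 lower there, 10 and 3 in 4T1R1, and 1 and 5 in 4T1R2.

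**Figure D3:**
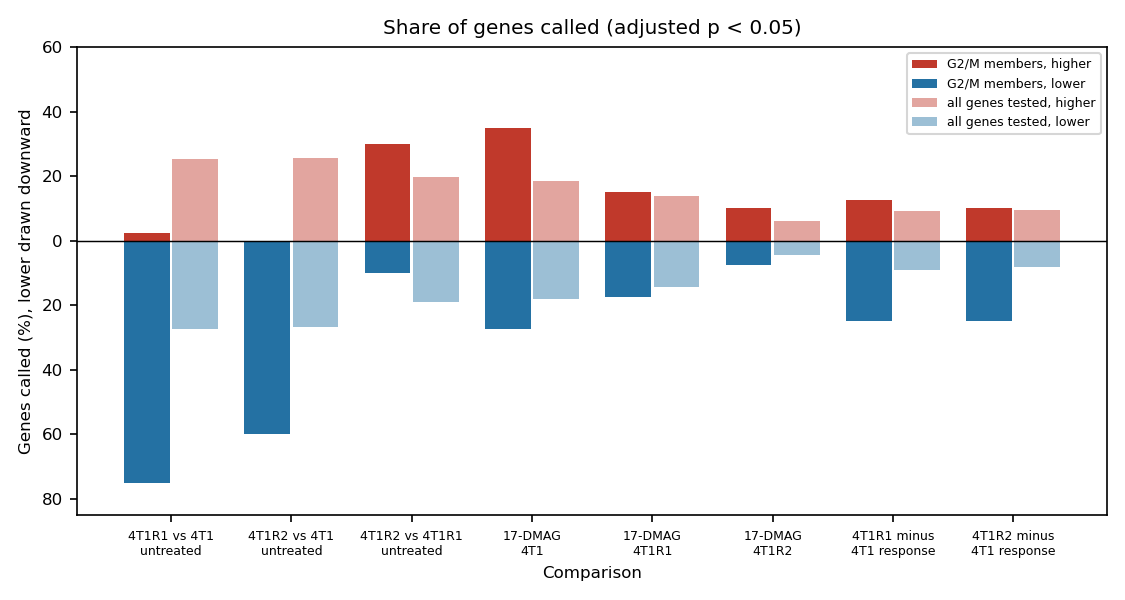
Share of the 40 genes (dark) and of all genes tested (pale) called higher (upward) and lower (downward) in the 8 comparisons. The lower share of the 40 genes is 30 and 24 of 40 in the untreated resistant populations, against 27.5% and 26.9% of all genes.

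Cenpf rose most in every population. In 4T1 it went from 452, 424 and 436 CPM to 701 and 687, in 4T1R1 from 396, 383 and 384 to 538, 532 and 525, and in 4T1R2 from 351, 355 and 355 to 444, 442 and 415. No library overlapped between treated and untreated cells, and the log2 fold changes were 0.67 (SE 0.0309), 0.46 (SE 0.0282) and 0.29 (SE 0.0284). Ccnb1 rose to 196 and 210 CPM in 4T1, to 143, 144 and 140 in 4T1R1 and to 165, 159 and 157 in 4T1R2, at 1.28-fold, 1.15-fold and 1.09-fold. The rise in 4T1R2 was lost under scaling by total counts alone (edgeR adjusted p = 0.203) and without untreated 4T1R2 replicate 1 or 3 or 17-DMAG-treated 4T1R2 replicate 1 (edgeR adjusted p = 0.0537, 0.0844 and 0.126). Ccna2 rose to 306 and 295 CPM in 4T1, to 214, 211 and 207 in 4T1R1 and to 254, 252 and 245 in 4T1R2. These were changes of 1.07-fold, 1.09-fold and 1.08-fold. Under scaling by total counts alone the change of Ccna2 in 4T1 was -0.02 on the log2 scale and that of Ect2 -0.0036. By that scaling Ccna2 was not called in 4T1R2 (edgeR adjusted p = 0.178). The call of Ccna2 in 4T1 was also lost without untreated 4T1 replicate 2 or 17-DMAG-treated 4T1 replicate 3 (edgeR adjusted p = 0.0744 and 0.269).

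The 6 genes that rose in 4T1R1 and the 4 that rose in 4T1R2 were all among the 14 that rose in 4T1, which is 42.9% and 28.6% of the 14. Ccna2, Ccnb1, Cenpf and Ect2 rose in all 3 populations, each measured against untreated cells of its own. This sharing depends on the scaling. By total counts alone 1 of the 40 genes rose in 4T1R2, and the changes of Ccna2 and Ect2 in 4T1 were -0.02 and -0.0036. The same overlap was not counted over all genes tested. Cenpe, a kinetochore motor, and Hmmr, a spindle-associated protein, rose in 4T1 and 4T1R1. No gene fell in all 3, and none was called in opposite directions in 2 populations.

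**Figure D4:**
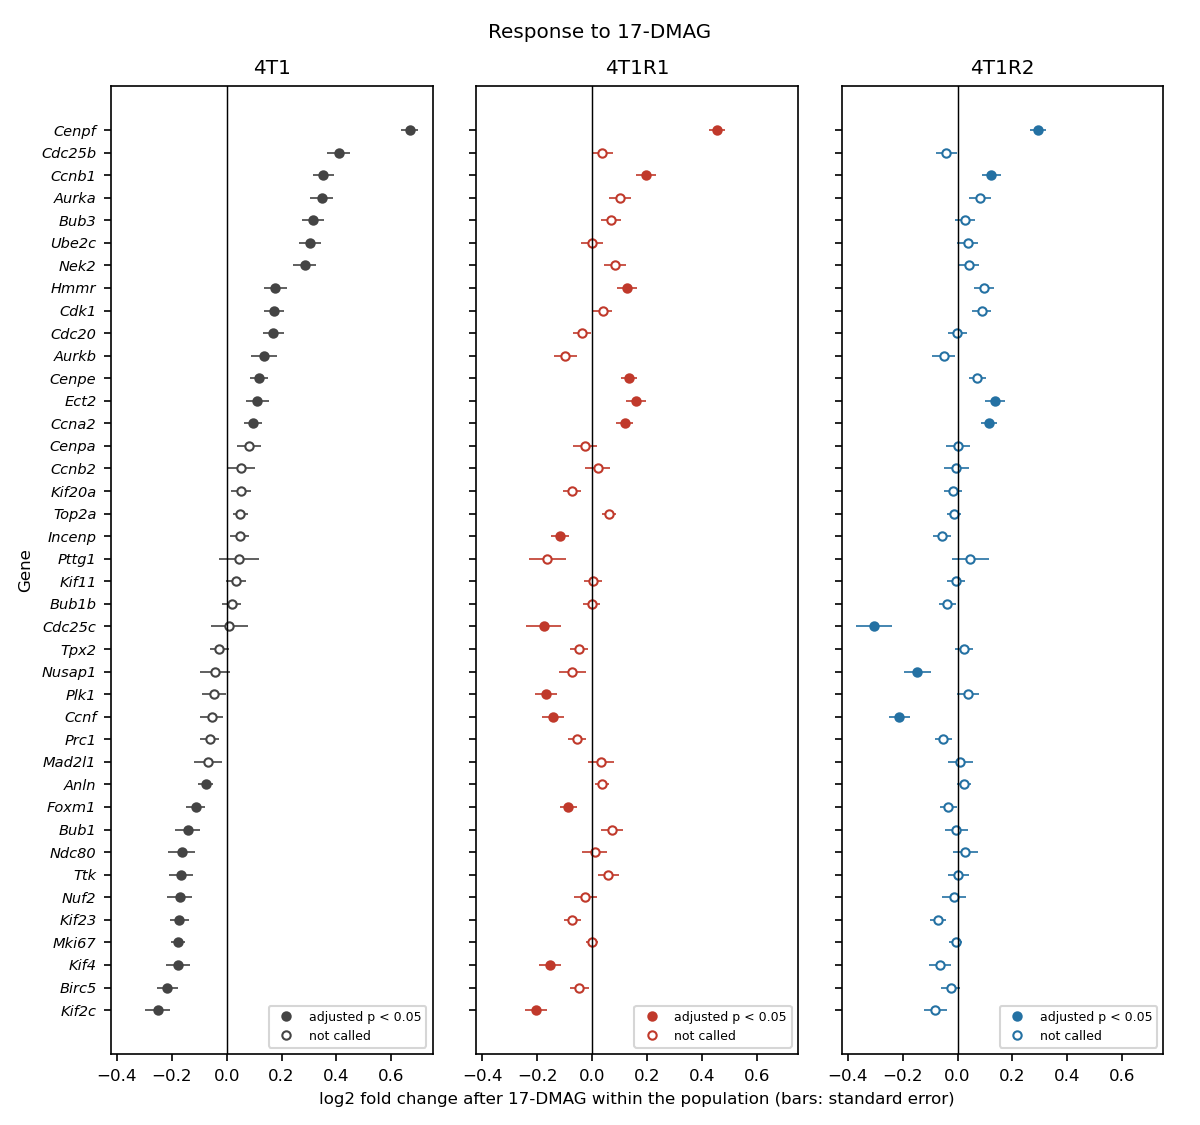
Log2 fold changes after 17-DMAG within 4T1, 4T1R1 and 4T1R2, with standard errors and filled points for adjusted p under 0.05, ordered by the change in 4T1. Cenpf is at the top in each panel, and the 4T1 panel spans -0.25 to 0.67 while the 4T1R2 panel spans -0.30 to 0.29.

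Several genes that rose in 4T1 were not called in the resistant populations. Cdc25b rose from 94.4, 95.5 and 95 CPM to 124 and 128 in 4T1, a change of 0.41 (SE 0.0419) on the log2 scale. It had 96.6, 95.6 and 104 CPM in treated 4T1R1 and 89.3, 85.8 and 92.4 in treated 4T1R2, which overlapped with the untreated libraries. Aurka rose to 160 and 148 CPM in 4T1, at 1.27-fold, and had 105, 114 and 112 CPM in treated 4T1R1 and 116, 109 and 110 in treated 4T1R2. The treated libraries of 4T1R1 and 4T1R2 lay above the untreated ones, but neither change was called. That in 4T1R1 was called under scaling by total counts alone, with a minimum of 10 counts and without treated 4T1R1 replicate 1 (edgeR adjusted p = 0.0105, 0.037 and 0.0188), and by DESeq2 (adjusted p = 0.0496). Ube2c rose to 187 and 184 CPM in 4T1, at 1.23-fold, and had 108, 112 and 105 CPM in treated 4T1R1 and 125, 119 and 123 in treated 4T1R2. Bub3 rose to 159 and 156 CPM in 4T1, at 1.24-fold, and had 118, 124 and 124 CPM in treated 4T1R1 and 133, 126 and 129 in treated 4T1R2. The treated and untreated libraries of the resistant populations overlapped for both genes, and scaling by total counts alone called Bub3 higher in 4T1R1 (edgeR adjusted p = 0.0356). Nek2, Hmmr, Cdk1, Cdc20, Aurkb, Cenpe and Ect2 made up the rest of the 14 with Ccna2, Ccnb1 and Cenpf, at log2 fold changes of at most 0.28. Cdk1 went to 213 and 217 CPM in 4T1, a rise not called under scaling by total counts alone (edgeR adjusted p = 0.262), and had 156, 159 and 159 CPM in treated 4T1R1 and 181, 168 and 169 in treated 4T1R2.

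**Figure D5:**
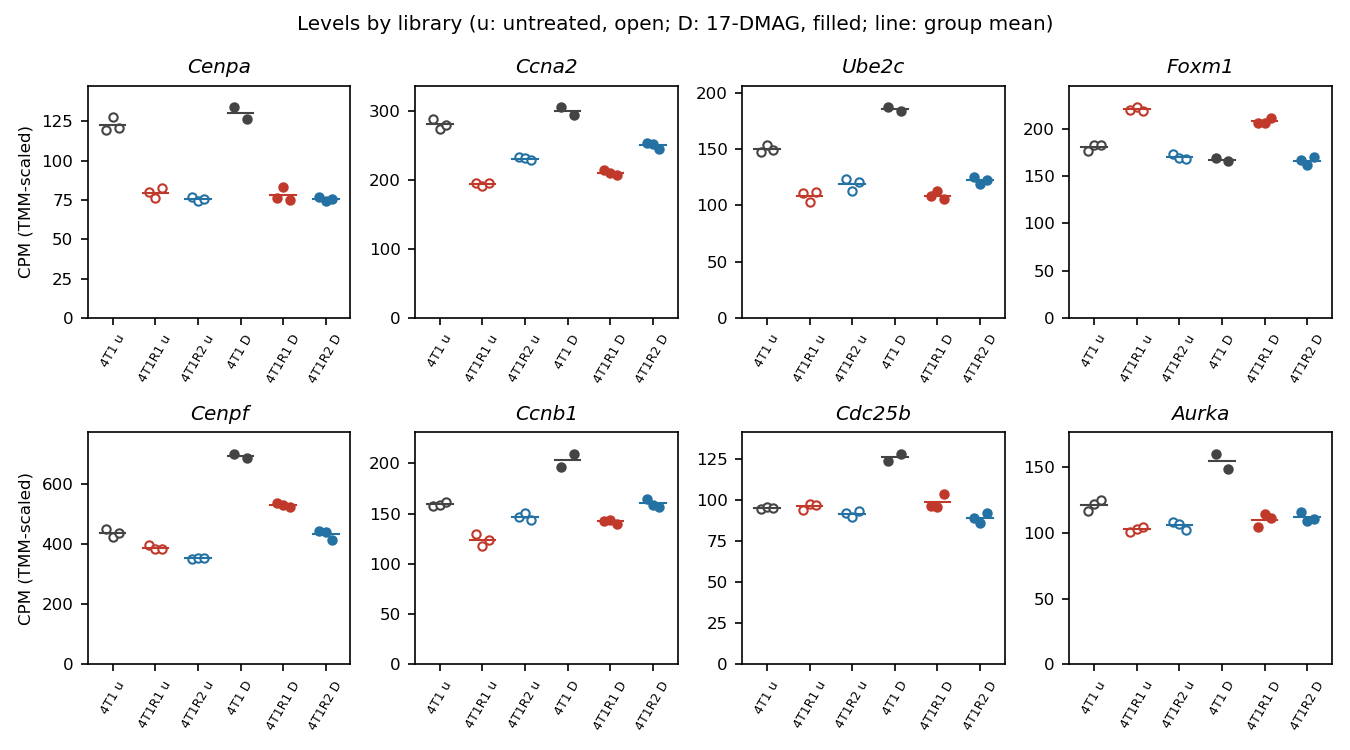
CPM of 8 genes in each library, open for untreated and filled for 17-DMAG, with group means as lines. Cenpf is at 701 and 687 CPM in treated 4T1 and between 415 and 444 CPM in treated 4T1R2, and Cdc25b is at 124 and 128 CPM in treated 4T1 alone.

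Of the 11 genes that fell in 4T1, 3 were of the kinetochore, 3 of the spindle and 2 were checkpoint kinases. Kif2c fell from 76, 76.1 and 76.3 CPM to 65.7 and 62.4 in 4T1, at 0.84-fold. In 4T1R1 it fell from 74.7, 73.7 and 77.5 CPM to 65.5, 66.8 and 63.9, at 0.868-fold. In treated 4T1R2 it had 65.7, 68.4 and 71.2 CPM, which overlapped with the untreated libraries. Mki67 fell to 1086 and 1091 CPM in 4T1, at 0.885-fold, and had 1106, 1086 and 1077 CPM in treated 4T1R1 and 1029, 1034 and 1013 in treated 4T1R2. Nuf2 fell to 82.4 and 84.2 CPM in 4T1, at 0.888-fold, with 72.3, 70.7 and 71.1 CPM in treated 4T1R1 and 72.2, 72.3 and 69.8 in treated 4T1R2. Treated 4T1 lay above every untreated library of the resistant populations for Nuf2, while for Mki67 it overlapped with untreated 4T1R1. Anln had 629 and 622 CPM in treated 4T1, 544, 540 and 526 in treated 4T1R1 and 529, 518 and 509 in treated 4T1R2, and its fall in 4T1 was lost without untreated 4T1 replicate 1 or 3 or treated replicate 3 (edgeR adjusted p = 0.0734, 0.0752 and 0.0761). Birc5, the gene of survivin, Kif4, Kif23, Ttk, Ndc80, Bub1 and Foxm1 were the other genes that fell in 4T1. Foxm1 had 169 and 166 CPM in treated 4T1, 206, 206 and 212 in treated 4T1R1 and 167, 162 and 170 in treated 4T1R2. It was called lower in 4T1R1 too, a call lost under scaling by total counts alone (edgeR adjusted p = 0.251) and without untreated 4T1R1 replicate 2 or treated 4T1R1 replicate 1 or 2 (edgeR adjusted p = 0.0732, 0.0946 and 0.0851), and with only the groups compared (edgeR adjusted p = 0.0627).

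Cdc25c and Ccnf fell in both resistant populations and were not called in 4T1, and of their differences between responses that of Cdc25c in 4T1R2 was called. Cdc25c had 30.5 and 29.4 CPM in treated 4T1, 22, 23.6 and 24.3 in treated 4T1R1 and 19.8, 20.6 and 20.8 in treated 4T1R2. The log2 fold changes were 0.01 (SE 0.0673), -0.18 (SE 0.0627) and -0.30 (SE 0.0639). The fall in 4T1R1 was lost without untreated 4T1R1 replicate 2 or 3 or treated 4T1R1 replicate 1 or 2 (edgeR adjusted p = 0.139, 0.0883, 0.173 and 0.051) and, like that of Ccnf there, under scaling by total counts alone (edgeR adjusted p = 0.0903 and 0.0504). Without a filter and with only the groups compared, the fall of Cdc25c in 4T1R1 was not called either (edgeR adjusted p = 0.0557 and 0.0616). Ccnf had 87.7 and 83.6 CPM in treated 4T1, 72.8, 71.4 and 76 in treated 4T1R1 and 77.8, 77.1 and 78.3 in treated 4T1R2, at 0.963-fold, 0.906-fold and 0.863-fold. Ccnf was called lower in 4T1 under scaling by total counts alone, at -0.17 (edgeR adjusted p = 0.00257). Its difference of responses in 4T1R2 was called by DESeq2 (adjusted p = 0.0486) and, in edgeR, with 18 separate libraries and without untreated 4T1 replicate 1 or treated 4T1 replicate 2 (adjusted p = 0.0438, 0.0252 and 0.0324). Plk1 fell in 4T1R1 to 97, 104 and 103 CPM, at 0.891-fold, and had 150 and 145 CPM in treated 4T1 and 128, 122 and 125 in treated 4T1R2. Scaling by total counts alone called Plk1 lower in 4T1 as well (edgeR adjusted p = 0.00256). Incenp fell in 4T1R1 and Nusap1 in 4T1R2. Top2a was called in no population, with 1147 and 1150 CPM in treated 4T1, 1104, 1114 and 1085 in treated 4T1R1 and 1057, 1054 and 1001 in treated 4T1R2, and neither was Cenpa, with 134 and 126, 76.3, 83.2 and 75.2, and 77.1, 74.6 and 75.9 CPM. The response of Top2a in 4T1R1 was called under scaling by total counts alone, with a minimum of 10 counts and without untreated 4T1R1 replicate 3 (edgeR adjusted p = 0.0113, 0.0444 and 0.0263). Bub1b, Ccnb2, Kif11, Kif20a, Mad2l1, Prc1, Pttg1 and Tpx2 were the other 8 of 10 genes called in none of the 3 responses.

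The differences between the responses were tested as interaction terms. The response in 4T1R1 was lower than that in 4T1 for 10 of the 40 genes and higher for 5, against 9.08% and 9.16% of all genes tested. For 4T1R2 it was lower for 10 and higher for 4, against 8.16% and 9.62%. The counts of higher responses were thus near the shares of all genes. The difference was largest for Cdc25b, at -0.37 (SE 0.0569, edgeR adjusted p = 3.99e-06) in 4T1R1 and -0.45 (SE 0.0572, edgeR adjusted p = 7.63e-08) in 4T1R2. For Cenpf it was -0.21 (SE 0.042) and -0.37 (SE 0.0421), for Ube2c -0.30 (SE 0.0561) and -0.27 (SE 0.0558), and for Bub3 -0.25 (SE 0.0537) and -0.29 (SE 0.0536), all of them called. Aurka, Aurkb, Nek2, Cdc20 and Ccnb1 had lower responses in both resistant populations as well, Incenp in 4T1R1, and Cdc25c in 4T1R2. Responses of Ttk, Birc5 and Mki67 were higher in both resistant populations than in 4T1, where these genes fell. Bub1 and Anln joined them in 4T1R1 and Ndc80 in 4T1R2. With a minimum of 10 counts, the responses of Anln, Kif2c and Nuf2 were also called higher in 4T1R2 than in 4T1 (edgeR adjusted p = 0.0415, 0.0355 and 0.0494). DESeq2 called those of Anln and Kif2c higher there as well (adjusted p = 0.0199 and 0.0335). In 4T1R1 the call of Anln was lost without untreated 4T1 replicate 1 or 3, untreated 4T1R1 replicate 1, treated 4T1 replicate 3, or treated 4T1R1 replicate 1 or 2 (edgeR adjusted p = 0.0583 to 0.0888). The 2 contrasts share the 4T1 libraries.

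The split of these differences also depends on the scaling. By total counts alone, which moved the median of all genes by 0.146 for 4T1R1, 2 genes responded less and 19 more in 4T1R1, and the differences of Cenpf, Bub3, Aurka and Ccnb1 there were not called (edgeR adjusted p = 0.367, 0.189, 0.242 and 0.94). In 4T1R2, 11 genes responded more by that scaling. The differences of Cdc25b and Ube2c were called under every alternative run. Without 17-DMAG-treated 4T1 replicate 3, the higher count in 4T1R1 was 3 and the lower count in 4T1R2 was 6, and the difference of Aurka in 4T1R1 was not called (edgeR adjusted p = 0.0595). That of Ccnb1 in 4T1R1 was lost without untreated 4T1 replicate 1, untreated 4T1R1 replicate 1, or treated 4T1R1 replicate 1 or 3 (edgeR adjusted p = 0.0613, 0.119, 0.0507 and 0.071).

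Other genes of the cell cycle were read from further lists, and the shares of all genes given above, 27.5% lower and 25.2% higher in untreated 4T1R1 and 26.9% and 25.6% in 4T1R2, apply to their counts. Of 28 other spindle and cytokinesis genes, 17 were called lower and 3 higher in untreated 4T1R1, and 14 and 3 in 4T1R2, with medians of -0.117 and -0.111. Tacc3, a spindle protein, had the largest fall in 4T1R1, at -0.54, and Ckap2l the largest rise, at 0.42. Of 32 other kinetochore genes, 8 were lower and 5 higher in 4T1R1 and 11 and 7 in 4T1R2, with medians of -0.0199 and -0.0524. Of 21 genes of the MuvB, E2F and NF-Y groups, 6 were lower and 4 higher in 4T1R1 and 8 and 3 in 4T1R2, with medians of 0.0155 and -0.0221. The lower counts of these 2 lists in 4T1R1 were near the share of all genes. Of 19 condensin and cohesin genes, 11 were lower and 5 higher in 4T1R1 and 7 and 6 in 4T1R2, with medians of -0.136 and 0.036. Of 16 genes of the anaphase-promoting complex and its regulators, 6 were lower and 2 higher in 4T1R1 and 7 and 2 in 4T1R2, with medians of -0.0924 and -0.0414.

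Of 30 DNA replication genes tested, 24 fell and 0 rose after the drug in 4T1, where 17.9% of all genes were called lower and 18.4% higher, with a median log2 fold change of -0.331. In 4T1R1, 16 fell and 0 rose, against 14.3% and 13.9% of all genes, with a median of -0.11, and in 4T1R2, 9 fell and 0 rose, against 4.35% and 6.18%, with a median of -0.0985. Under scaling by total counts alone, 28 fell in 4T1, 10 fell and 2 rose in 4T1R1, and 16 fell in 4T1R2. Cdc6, which loads the replicative helicase, had the largest fall in 4T1, at -0.72. The response was higher than that in 4T1 for 17 of the 30 in 4T1R1 and for 19 in 4T1R2, where 9.16% and 9.62% of all genes were called so, and for 27 and 22 under scaling by total counts alone. In untreated cells 14 of these genes were lower and 8 higher in 4T1R1, and 13 and 7 in 4T1R2. Of 15 genes that control entry into mitosis from outside the core set, 4 rose and 8 fell in 4T1, with a median of -0.165, against 18.4% and 17.9% of all genes, and 1 rose and 10 fell under scaling by total counts alone. Gadd45a, a stress gene that restrains CDK1, rose there by 1.44 on the log2 scale, and Cdkn1a, the CDK inhibitor p21, fell by 1.03. In 4T1R1, 3 rose and 5 fell, against 13.9% and 14.3% of all genes, and in 4T1R2 1 rose and 3 fell, against 6.18% and 4.35%. In untreated cells 2 of the 15 were higher and 5 lower in 4T1R1, and 4 and 4 in 4T1R2. Gadd45a was called higher in both, at 1.82 and 1.4 against 4T1. Its response was lower than that in 4T1, by differences of -1.455 in 4T1R1 and -1.396 in 4T1R2.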

How the data were processed

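Libraries were stranded (dUTP) and made after removal of ribosomal RNA. STAR was used by the authors to align reads to mm10/GRCm38. They counted reads per gene with featureCounts (Subread 1.6.2 in the submitters' processing notes), and deposited whole-number counts without normalization. The strand setting and the handling of reads with several matches are not given in the sources used here. Between 65.6% and 70.8% of counts from 1 to 12 were even, so mates of a fragment appear to be counted singly. The ribosomal precursor Rn45s took 9.54% to 15.6% of a library. Totals were 23354461 to 55094630 counts per library.

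The 2 treated 4T1 libraries averaged here (replicates 1 and 2) had a chi-square per gene of 1.099, against 2.042 to 2.219 in the 17 other pairs of a group. Counts of 17 libraries and 6 groups were fitted with edgeR 4.0.16 in R 4.3.3 (filterByExpr, TMM, quasi-likelihood test, Benjamini-Hochberg over 13507 genes, threshold 0.05), where the study used DESeq2. Standard errors were derived from the F statistic and the fold change. Figure legends of the study call the replicates biological, while the sample titles only number them. The p-values measure only the spread between these samples. The code was tested on simulated data.

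Alternatives were DESeq2 1.42.0, RLE scaling, scaling by totals, leaving out the filter, requiring 10 counts in each library, only the groups compared, 18 separate libraries, the replicate number as a block, no Rn45s, and each library left out. Positions come from GENCODE vM21, promoter windows from RefSeq (GRCm38.p6), transcript copies from BLAST 2.17.0, and figures from matplotlib 3.10.9. The members and the other lists were chosen with earlier results of these data known. Library values are printed for the 3 members with the largest change in each comparison and for Ccnb1, Cdk1, Plk1, Aurka, Top2a and Mki67. Each further list is given by counts, in part with medians, and only for some of the comparisons. The largest changes of some lists are added. Counts bear on counting error only.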

Additional observations from a re-analysis of the deposited data

Results flagged for a closer look

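For the 3 members with the largest difference in each resistant population, the response to 17-DMAG differed from that in 4T1 by an interaction test. They are differences on the log2 scale (resistant minus 4T1) with edgeR's adjusted p. In 4T1R1 they were -0.3721 for Cdc25b (adjusted p = 3.99e-06), -0.2476 for Bub3 (adjusted p = 0.000741) and -0.3037 for Ube2c (adjusted p = 8.7e-05). In 4T1R2 they were -0.4494 for Cdc25b (adjusted p = 7.63e-08), -0.3129 for Cdc25c (adjusted p = 0.0141) and -0.3722 for Cenpf (adjusted p = 4.82e-09). The difference of Bub3 in 4T1R1 and that of Cdc25c in 4T1R2 were not called under scaling by total counts alone (adjusted p = 0.189 and 0.0611), and that of Cdc25c was not called without 17-DMAG-treated 4T1 replicate 3 (adjusted p = 0.0888). Only 2 samples stand behind treated 4T1 in each of them.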

How the results depend on the processing

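RLE scaling, DESeq2 and the fit without Rn45s kept every count of members called within 1.5 times its value. Scaling by total counts alone moved 10 of 16 counts. It gave 2 members higher in untreated 4T1R1, 7 higher and 18 lower after 17-DMAG in 4T1, 10 and 3 in 4T1R1, 1 and 5 in 4T1R2, 19 higher and 2 lower for the response of 4T1R1 minus that of 4T1, and 11 higher for that of 4T1R2. It turned the response of Ccna2 in 4T1 to -0.01964. The 4 members with a higher response in 4T1R2 than in 4T1 were 2 without a filter and 7 with a minimum of 10 counts, with only the groups compared and with 18 separate libraries, and the minimum gave 2 members higher in untreated 4T1R1.

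Replicate numbers did not pair the samples, since same-numbered libraries had correlations of -0.046 to 0.0684 between deviations and 2 libraries were closest to their own number. With the replicate number as a block the count of members with a higher response in 4T1R2 was 7, and no other count moved by over 1.5 times. Leaving out a library gave 1 to 2 members higher in untreated 4T1R1, 0 to 1 in 4T1R2, 7 to 12 higher in 4T1R2 than in 4T1R1 (7 without untreated 4T1R1 replicate 3), 2 to 5 higher after 17-DMAG in 4T1R2 (2 without untreated 4T1R2 replicate 1), 3 to 6 with a higher response in 4T1R1, and 2 to 5 with a higher and 6 to 11 with a lower response in 4T1R2 (3 and 6 without treated 4T1 replicate 3). The count of 2 in untreated 4T1R1 came without untreated 4T1 replicate 2, the count of 1 in untreated 4T1R2 without untreated 4T1 replicate 1 or untreated 4T1R2 replicate 3, and the 2 with a higher response in 4T1R2 without untreated 4T1 replicate 1, untreated 4T1R2 replicate 2 or treated 4T1R2 replicate 2. Without treated 4T1 replicate 3 that group held 1 sample, which was assumed to vary like the other groups. The lowest count of a member was 592, and n = 2 in treated 4T1 bears on every difference of responses.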
